A study of Mus musculus with 4 samples.

Results

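The miRNAs described here are markers of white blood cells, measured in EVs (extracellular vesicles) that were collected from cultured mouse hepatocytes. They are mmu-miR-142a-3p, mmu-miR-142a-5p, mmu-miR-223-3p, mmu-miR-155-5p and mmu-miR-150-5p, picked by name, and they are 5 of the 1881 mouse miRNAs that the array carries. The prefix mmu, for mouse, is left out from here on. Of these, miR-142a-3p, miR-223-3p and miR-155-5p were above background on all 4 arrays, while miR-142a-5p and miR-150-5p were above background on none. The 3 detected miRNAs did not follow 1 common pattern. miR-142a-3p was higher after HFD (high-fat diet) in both genotypes and lower without Ggpps on both diets. miR-223-3p was higher without Ggpps on both diets, and slightly lower after HFD without Ggpps. miR-155-5p was higher after HFD in both genotypes, and also higher without Ggpps on HFD.

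Each of 4 groups was measured on 1 Agilent mouse miRNA array, which held RNA from EVs pooled from the hepatocytes of 4 animals. Chow-EV and HFD-EV came from WT (wild-type) mice fed a chow diet or a high-fat diet, whereas Ggpps LKO mice on these diets gave Chow-LKO EV and HFD-LKO EV. Ggpps encodes geranylgeranyl diphosphate synthase, an enzyme that makes the lipid attached to many small GTPases. All mice were male, of strain B6 and 20 weeks old, with 12 weeks on the diet, and their hepatocytes were cultured for 48 h. In the LKO mice a floxed Ggpps gene was recombined by Mx1-Cre after injection of polyinosinic-polycytidylic acid. The study describes this recombination as confined to the liver. The Mx1 promoter responds to interferon, and in other work Mx1-Cre is also used to recombine genes in blood-forming cells. The methods do not say whether WT mice were injected. The hepatocytes were purified by collagenase perfusion, low-speed centrifugation and Percoll. The medium used to collect EVs contained serum and had been depleted of EVs by ultracentrifugation. The study reports that HFD raised the output of EVs and that LKO hepatocytes released fewer. It loaded the same mass of EVs for each group. Signals here therefore describe the content of EVs and not the amount of a miRNA released. The loss of Ggpps could not be verified on arrays of miRNA probes. Of all miRNAs on the array, between 25.6% and 27.0% were above background in each group, and 443 were above background on all 4 arrays. The 4 arrays shared 1 slide and 1 scan.

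miRNAs are short RNAs that guide Argonaute proteins to messenger RNAs, mainly through the seed, the bases 2 to 8 from the 5′ end. miR-142 is made in nearly all blood lineages and hardly in other cells, which is why it serves as a marker of leukocytes in tissue. miR-223 is most abundant in neutrophils and other myeloid cells, and miR-150 in mature lymphocytes. miR-155 is kept low in resting cells and is induced in macrophages and lymphocytes by Toll-like receptor and NF-κB signalling. In liver, Kupffer cells and infiltrating leukocytes are the usual sources of these miRNAs. Hepatocytes can also contain miR-223 and miR-155, so these 2 miRNAs mark leukocytes less strictly than miR-142 does. In a bulk preparation, fewer cells of a type and less RNA from each cell cannot be told apart.

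The mature sequences of 4 of the 5 members were found in RefSeq (GRCm38.p6) and are given here because they show which strands were detected and that the members are different RNAs. Capitals mark the seed.
miR-142a-3p: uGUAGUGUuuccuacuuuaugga
miR-142a-5p: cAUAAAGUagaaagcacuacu
miR-223-3p: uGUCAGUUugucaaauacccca
miR-155-5p: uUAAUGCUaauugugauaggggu

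The 4 seeds differ from each other, and no other miRNA of the array that has a RefSeq sequence shares any of them. These 4 members are thus grouped by cell type and not by a shared seed. miR-142a-3p and miR-142a-5p are the 2 strands of 1 hairpin, Mir142, at chr11:87756864-87756927 on the plus strand, where miR-142a-5p lies at chr11:87756867-87756887 and miR-142a-3p at chr11:87756903-87756925. The gene of miR-142b, Mir142b, covers the same place on the minus strand. miR-223-3p lies at chrX:96242884-96242905 on the plus strand, in the hairpin Mir223 and inside the noncoding RNA gene F630028O10Rik. miR-155-5p lies at chr16:84714143-84714165 on the plus strand, in the hairpin Mir155 and inside the noncoding RNA gene Mir155hg (chr16:84713023-84715245), the transcript from which miR-155 is cut.

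miR-142b is shown because its sequence bears on what the array can tell apart.
miR-142b: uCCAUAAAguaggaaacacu

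Its 20 bases are the reverse complement of positions 4 to 23 of miR-142a-3p. The 2 probes of miR-142b gave signals of -4.84 (Chow-EV) and -6.49 (HFD-EV) for WT, and -6.01 (Chow-LKO EV) and -1.46 (HFD-LKO EV) for LKO, and none of their spots was above background. Signal at this locus was thus measured on the plus strand and for miR-142a-3p alone.

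The signal of a miRNA is the sum over its probes of the mean background-subtracted spot signal, in arbitrary units, and each ± is the SD between replicate spots. The SD describes technical scatter on the slide, and how much animals, cultures or preparations of EVs vary was not measured. With 1 array for each group, no test between groups was possible and no p-value is given. Each member had 2 probes with 15 spots each. Since probes differ in how strongly they bind, the signals of different miRNAs do not give the order of their amounts.

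miR-142a-3p, 1 strand of the blood-lineage miRNA, gave 61.5 ± 6.52 (Chow-EV) and 126.6 ± 7.38 (HFD-EV) with Ggpps, and 46.2 ± 6.21 (Chow-LKO EV) and 79.4 ± 7.70 (HFD-LKO EV) without it. The HFD-EV array was the highest and the Chow-LKO EV array the lowest. Both probes were above background on every array except Chow-LKO EV, where 17 of 29 spots and 1 of 2 probes were. The lowest signal that counted as above background was 13.8 to 19.9, depending on the array.

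miR-142a-5p, the other strand, gave 9.34 (Chow-EV) and 13.2 (HFD-EV) for WT, and 12.2 (Chow-LKO EV) and 11.6 (HFD-LKO EV) for LKO. These signals were below the lowest detected signal of each array, and 0 of its 28 to 30 spots were above background. The detected product of Mir142 was the 3p strand, and the depth of the arrays gives no level for the 5p strand.

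miR-223-3p, the myeloid miRNA, gave 179.5 ± 7.35 (Chow-EV) and 176.9 ± 7.79 (HFD-EV) with Ggpps, and 365.3 ± 15.5 (Chow-LKO EV) and 275.2 ± 12.98 (HFD-LKO EV) without it. Both LKO arrays were above both WT arrays, and every spot was above background. Its partner strand miR-223-5p gave -4.03, -2.78, -1.94 and 0.227 in the same order and was above background on no array.

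miR-155-5p, the miRNA induced by inflammatory signalling, gave 128.2 ± 8.16 (Chow-EV) and 216.0 ± 11.6 (HFD-EV) with Ggpps, and 191.0 ± 17.2 (Chow-LKO EV) and 294.4 ± 10.8 (HFD-LKO EV) without it. Each HFD array was above the chow array of the same genotype. Its partner strand miR-155-3p was above background on no array, with signals from -4.96 to -2.98.

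miR-150-5p, the miRNA of mature lymphocytes, gave 0.435 (Chow-EV) and 1.96 (HFD-EV) for WT, and 4.03 (Chow-LKO EV) and 6.06 (HFD-LKO EV) for LKO. None of its 27 to 30 spots was above background on any array, and the SD between its spots was 2.79 to 3.46, so no level and no order can be read from these values. Its partner strand miR-150-3p gave 33.5, 47.8, 45.2 and 35.6 over 4 probes. In HFD-EV 1 of the 4 probes was above background (6 of 7 spots), and in HFD-LKO EV a different probe was (4 of 7 spots). The probe sequence listed for it pairs with 13 bases of the miRNA (positions 10 to 22).

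**Figure D1:**
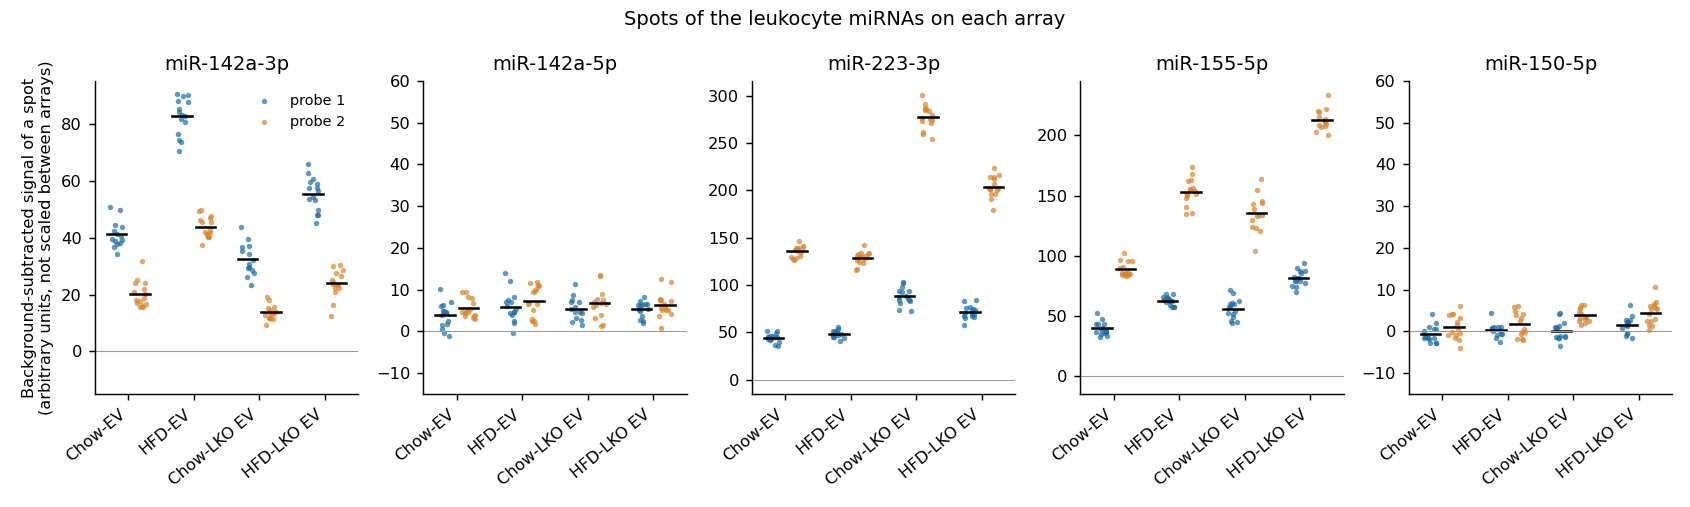
Background-subtracted signal of every spot (vertical axis, arbitrary units, linear and not scaled between arrays) of the 2 probes of each leukocyte miRNA on the 4 arrays (horizontal axis); lines are probe means, and outlier spots are left out. The spots of miR-142a-3p, miR-223-3p and miR-155-5p lie above 0 on each array, with the arrays in the same order for both probes except that the WT arrays of miR-223-3p change places, and those of miR-142a-5p and miR-150-5p scatter near 0.

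Summed over the members above background, the signal was 369.2 (Chow-EV) and 519.4 (HFD-EV) for WT, and 602.6 (Chow-LKO EV) and 649.0 (HFD-LKO EV) for LKO. This was 0.0598%, 0.0795%, 0.0846% and 0.105% of the summed signal of all detected miRNAs, which is a share of signal and not of molecules. The sum was lowest in Chow-EV and highest in HFD-LKO EV, but it hides opposite differences of its parts, since miR-142a-3p was lower in both LKO arrays, and miR-223-3p higher, than in the WT array of the same diet.

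For comparisons between arrays, signals were scaled to a common level, the 75th percentile of the 443 miRNAs detected throughout. On this scale miR-142a-3p was at 12.1%, 22.6%, 7.53% and 15.04% of the percentile, in the order used above. miR-223-3p was at 35.3%, 31.5%, 59.5% and 52.2%, and miR-155-5p at 25.2%, 38.5%, 31.1% and 55.8%. Ordered by level, miR-142a-3p was highest in HFD-EV, then HFD-LKO EV, Chow-EV and Chow-LKO EV, and HFD-LKO EV and Chow-EV differed by 0.31 ± 0.21 on the log2 scale, within 2 spot SDs. miR-223-3p was highest in Chow-LKO EV, then HFD-LKO EV, Chow-EV and HFD-EV, and the last 2 differed by 0.16 ± 0.09, again within 2 spot SDs. miR-155-5p was highest in HFD-LKO EV, then HFD-EV, Chow-LKO EV and Chow-EV, and the last 2 differed by 0.30 ± 0.16, within 2 spot SDs. The other neighbours in these orders differed by more than 2 spot SDs.

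From lowest to highest array, miR-142a-3p spanned 1.58 on the log2 scale, miR-155-5p 1.14 and miR-223-3p 0.92. For the 443 miRNAs detected throughout, the median span was 0.74, and 9.26% of them spanned more than miR-142a-3p, 23.9% more than miR-155-5p and 38.4% more than miR-223-3p. The signal of miR-142a-3p was 2.72 to 6.35 times the lowest detected signal of the array.

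HFD-EV and Chow-EV were compared to see how diet changed these miRNAs in WT mice. miR-142a-3p was higher in HFD-EV by 0.90 ± 0.17 on the log2 scale (1.86-fold) and miR-155-5p by 0.61 ± 0.12 (1.53-fold), while miR-223-3p was at -0.16 ± 0.09, within 2 spot SDs. Among 477 miRNAs measured on both arrays, miR-142a-3p ranked 22 and miR-155-5p 66 from the top. Of the 3 detected members 2 were higher by more than 2 spot SDs and 0 lower, against 33.3% higher and 23.9% lower of all miRNAs measured. No member was 2-fold higher or lower, beside 2.74% and 1.76% of all miRNAs. The median of the members was 0.61 and the median of all miRNAs 0.10. With 3 members measured, the median of the members is the ratio of miR-155-5p alone, here and in the other comparisons. It does not describe a shift of the members as a set.

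HFD-LKO EV and Chow-LKO EV gave the same diet comparison without Ggpps. miR-142a-3p was higher in HFD-LKO EV by 0.999 ± 0.24, just under 2-fold, and miR-155-5p was higher by 0.84 ± 0.14. miR-223-3p was lower, at -0.19 ± 0.09. By more than 2 spot SDs 2 of the 3 detected members were higher and 1 lower, against 37.1% and 18.7% of the 466 miRNAs measured. The counts past 2-fold were 0 in each direction, beside 4.21% higher and 1.53% lower of all miRNAs. The median of the members, again the ratio of miR-155-5p, was 0.84, and that of all miRNAs 0.14.

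The diet ratios of the 2 genotypes lay close together for each member. The ratio in LKO minus that in WT was 0.10 ± 0.30 for miR-142a-3p, -0.03 ± 0.13 for miR-223-3p and 0.23 ± 0.18 for miR-155-5p, all within 2 spot SDs. For the 443 miRNAs detected throughout, this difference had a median of 0.06 and ran from -0.49 to 0.89 between the 5th and the 95th percentile. The 2 diet ratios come from separate pairs of arrays, each with 1 array for each diet.

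Chow-LKO EV and Chow-EV were compared for the effect of the knockout on chow. miR-223-3p was higher in Chow-LKO EV by 0.75 ± 0.09 (1.68-fold) and ranked 25 from the top of 463 miRNAs, while miR-142a-3p was lower, at -0.69 ± 0.25 (1.61-fold lower). miR-155-5p was at 0.30 ± 0.16, within 2 spot SDs. Thus 1 of the 3 detected members was higher and 1 lower by more than 2 spot SDs, against 20.3% higher and 36.5% lower of all miRNAs measured. No member was past 2-fold, beside 2.92% higher and 5.45% lower. The median of the members, again the ratio of miR-155-5p, was 0.30 and that of all miRNAs -0.13.

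HFD-LKO EV and HFD-EV gave the knockout comparison on the high-fat diet. miR-223-3p was higher in HFD-LKO EV by 0.73 ± 0.09 (1.65-fold) and miR-155-5p by 0.54 ± 0.09 (1.45-fold), and miR-142a-3p was lower, at -0.59 ± 0.16. So 2 of the 3 detected members were higher and 1 lower by more than 2 spot SDs, against 24.7% and 36.3% of the 474 miRNAs measured. Past 2-fold there was no member, beside 7.87% higher and 7.49% lower of all miRNAs. The median of the members, again the ratio of miR-155-5p, was 0.54 and that of all miRNAs -0.06. The diet and the knockout comparisons share arrays, so these 4 sets of values are not independent of each other.

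**Figure D2:**
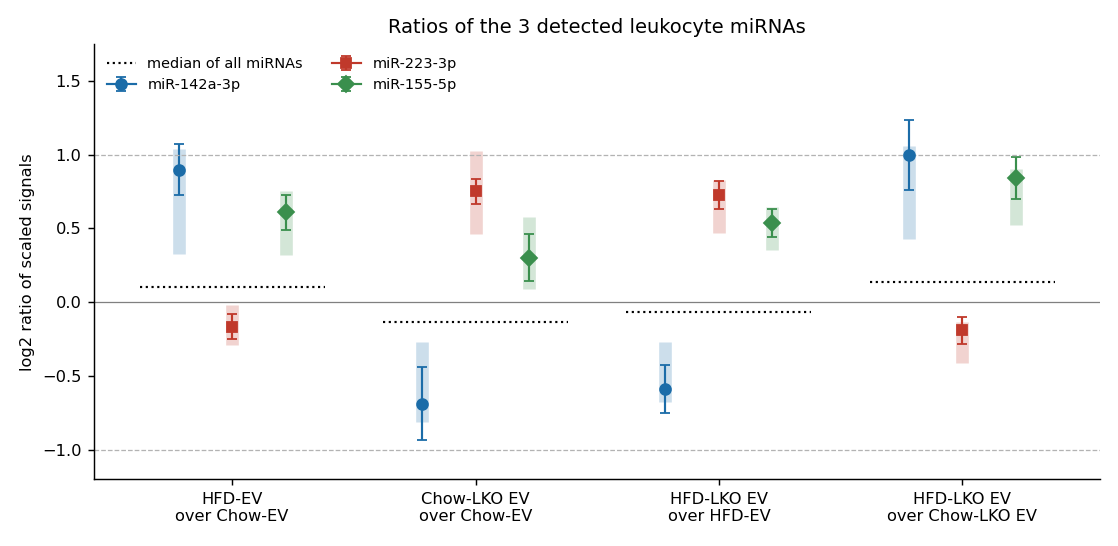
log2 ratio of scaled signals (vertical axis) of the 3 detected leukocyte miRNAs in the 4 comparisons (horizontal axis); points and error bars are the ratio and its spot SD, shaded bars the range over 13 other ways of processing, dotted lines the median of all miRNAs measured, and dashed lines 2-fold. miR-142a-3p lies on the other side of 0 from miR-223-3p in all 4 comparisons.

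None of these 12 ratios changed sign under any of 13 other ways of processing, of which the changes of the signal filter left them unchanged by construction. The 2-fold line was crossed in a few: without scaling between arrays, miR-142a-3p in HFD-EV over Chow-EV was at 1.04 and miR-223-3p in Chow-LKO EV over Chow-EV at 1.03, and miR-142a-3p in HFD-LKO EV over Chow-LKO EV was at 1.02 to 1.06 under 4 others. At a 1.5-fold rule, 2 members were higher and 0 lower in each diet comparison, beside 16% higher and 13.5% lower of all miRNAs in WT and 17.8% and 7.85% in LKO. In each knockout comparison 1 member was higher and 1 lower, beside 11.9% and 16.9% of all miRNAs on chow and 15.9% and 20.2% on HFD. The ratio of 2 members on the same array does not change when an array is scaled by 1 factor, as in all the scalings used except quantile normalisation. miR-142a-3p minus miR-223-3p was 1.06 ± 0.19 for HFD-EV over Chow-EV, -1.44 ± 0.26 for Chow-LKO EV over Chow-EV, -1.31 ± 0.19 for HFD-LKO EV over HFD-EV and 1.19 ± 0.26 for HFD-LKO EV over Chow-LKO EV, more than 2 spot SDs from 0 each time. The lineage-wide and the myeloid marker thus moved unequally in each comparison. miR-142a-3p minus miR-155-5p was 0.29 ± 0.21 and 0.16 ± 0.28 for the diet in WT and LKO, within 2 spot SDs, and -0.99 ± 0.29 and -1.12 ± 0.19 for the knockout on chow and HFD. miR-223-3p minus miR-155-5p was -0.77 ± 0.15 and -1.03 ± 0.17 for the diet, and 0.45 ± 0.18 and 0.19 ± 0.13 for the knockout, of which the last was within 2 spot SDs.

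The 2 probes of each detected member gave ratios of the same sign in every comparison. For miR-142a-3p they were 0.86 and 0.97 in HFD-EV over Chow-EV, -0.62 and -0.83 in Chow-LKO EV over Chow-EV, -0.49 and -0.79 in HFD-LKO EV over HFD-EV, and 0.99 and 1.02 in HFD-LKO EV over Chow-LKO EV. The second probe was not above background in Chow-LKO EV, so its values there are uncertain. The probes of miR-223-3p gave 0.73 and 0.76 for the knockout on chow and 0.66 and 0.75 on HFD. Those of miR-155-5p gave 0.52 and 0.65 for the diet in WT and 0.76 and 0.88 in LKO.

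Other leukocyte-enriched miRNAs were read next, to see whether they moved as the members did. Of 8 on this list, 3 were above background on all arrays, with miR-181a-5p above background in the 2 WT arrays only. miR-342-3p, a miRNA of lymphoid and myeloid cells from an intron of Evl, gave 93.4 ± 5.00 (Chow-EV) and 67.3 ± 5.78 (HFD-EV) with Ggpps, and 199.2 ± 8.04 (Chow-LKO EV) and 119.1 ± 5.33 (HFD-LKO EV) without it. Like miR-223-3p it was higher without Ggpps, at 0.82 ± 0.10 on chow and 0.91 ± 0.14 on HFD, and it was lower after HFD, at -0.62 ± 0.15 in WT and -0.52 ± 0.09 in LKO. miR-146a-5p, which is induced by NF-κB and restrains the same pathway, gave 142.2 ± 7.26, 199.8 ± 10.3, 360.7 ± 14.5 and 381.7 ± 12.9 in the order WT on chow, WT on HFD, LKO on chow, LKO on HFD. It was 2.10-fold higher without Ggpps on chow (log2 1.07 ± 0.09) and 2.03-fold higher on HFD (1.02 ± 0.09), with 0.35 ± 0.10 and 0.30 ± 0.08 for the diet. miR-511-3p, from an intron of the macrophage gene Mrc1, gave 33.5, 35.9, 41.5 and 31.2, and its ratios were within 2 spot SDs of 0 in all 4 comparisons. For miR-181a-5p the knockout ratio on chow was a bound against the lowest detected signal, at least 1.38-fold lower. On HFD it was 1.35-fold lower against its own undetected signal, which was above the lowest detected signal, so this is no strict limit. Its WT signals were only 1.25 (Chow-EV) and 1.16 (HFD-EV) times the lowest detected signal.

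The median of the other leukocyte-enriched miRNAs was 0.04 in HFD-EV over Chow-EV (4 measured) and -0.19 in HFD-LKO EV over Chow-LKO EV (3 measured), against 0.82 in Chow-LKO EV over Chow-EV and 0.91 in HFD-LKO EV over HFD-EV (3 measured each). By more than 2 spot SDs, 2 of 3 were higher and 0 lower in each knockout comparison, beside 20.3% of all miRNAs higher on chow and 24.7% on HFD. In each diet comparison 1 was higher and 1 lower, beside 33.3% higher and 23.9% lower of all miRNAs in WT and 37.1% and 18.7% in LKO. The higher ones without Ggpps were miR-342-3p and miR-146a-5p on both diets. Of 6 miRNAs induced by inflammatory signalling, 3 were measured: miR-155-5p and miR-146a-5p, which are also counted above, and miR-21a-5p, which hepatocytes express as well. All 3 were higher after HFD in each genotype by more than 2 spot SDs, beside 33.3% of all miRNAs in WT and 37.1% in LKO, with medians of 0.38 in WT and 0.52 in LKO. miR-21a-5p was at 0.38 ± 0.05 and 0.52 ± 0.07 for the diet and at -0.41 ± 0.07 and -0.28 ± 0.05 for the knockout, opposite in sign to miR-155-5p in the latter. miR-132-3p, miR-146b-5p and miR-147-3p were above background on no array.

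Markers of the other cells that a hepatocyte preparation can hold are given beside these results, and their part in the results was not tested. All 6 hepatocyte miRNAs were above background on every array, with 14.4% to 16.0% of the summed signal, and miR-122-5p was at 0.00 ± 0.05 and 0.17 ± 0.06 for the diet and at -0.16 ± 0.06 and 0.00 ± 0.05 for the knockout. The list's medians were -0.01, -0.04, -0.25 and -0.19 in the same order. Some of the other hepatocyte miRNAs differed between genotypes by more than 2 spot SDs and by as much as the members. miR-194-5p was at -0.68 ± 0.06 on chow and -0.64 ± 0.03 on HFD, miR-122-3p at -0.49 ± 0.10 and -0.61 ± 0.08, and miR-101b-3p at 0.74 ± 0.11 and 0.68 ± 0.12. The rest differed less, with miR-148a-3p at -0.33 ± 0.05 and -0.38 ± 0.04. miR-192-5p was within 2 spot SDs on both diets, at 0.05 ± 0.07 and 0.05 ± 0.06. Of 4 erythroid miRNAs, 2 were measured, and miR-451a gave 28.5, 44.3, 61.6 and 88.2 (same order of arrays). miR-451a was higher by more than 2 spot SDs in all 4 comparisons, at 0.50 ± 0.23 and 0.74 ± 0.15 for the diet and 0.84 ± 0.19 and 1.08 ± 0.19 for the knockout, while miR-144-3p and miR-144-5p were above background on no array. miR-486a-5p, the other one measured, was within 2 spot SDs of 0 in each, at 0.08 ± 0.33 and -0.25 ± 0.25 for the diet and 0.27 ± 0.32 and -0.06 ± 0.26 for the knockout. The summed signal of this list ran from 57.2 in Chow-EV to 118.4 in HFD-LKO EV. Both endothelial strands of miR-126a were measured, with medians of 0.03 and -0.12 for the diet and -0.20 and -0.35 for the knockout. miR-126a-3p was at 0.16 ± 0.05 and 0.08 ± 0.05 for the diet and -0.36 ± 0.05 and -0.44 ± 0.04 for the knockout. Of these only the diet ratio in LKO was within 2 spot SDs. miR-126a-5p, with 1 of 2 probes above background on each array, was within 2 spot SDs in each comparison. Of 5 stellate and mesenchymal miRNAs only miR-199a-3p was measured, at 0.70 ± 0.28 for the knockout on chow and within 2 spot SDs in the other 3 comparisons. Of 5 bile duct and epithelial miRNAs, all from the miR-200 family, none was above background on any array.

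**Figure D3:**
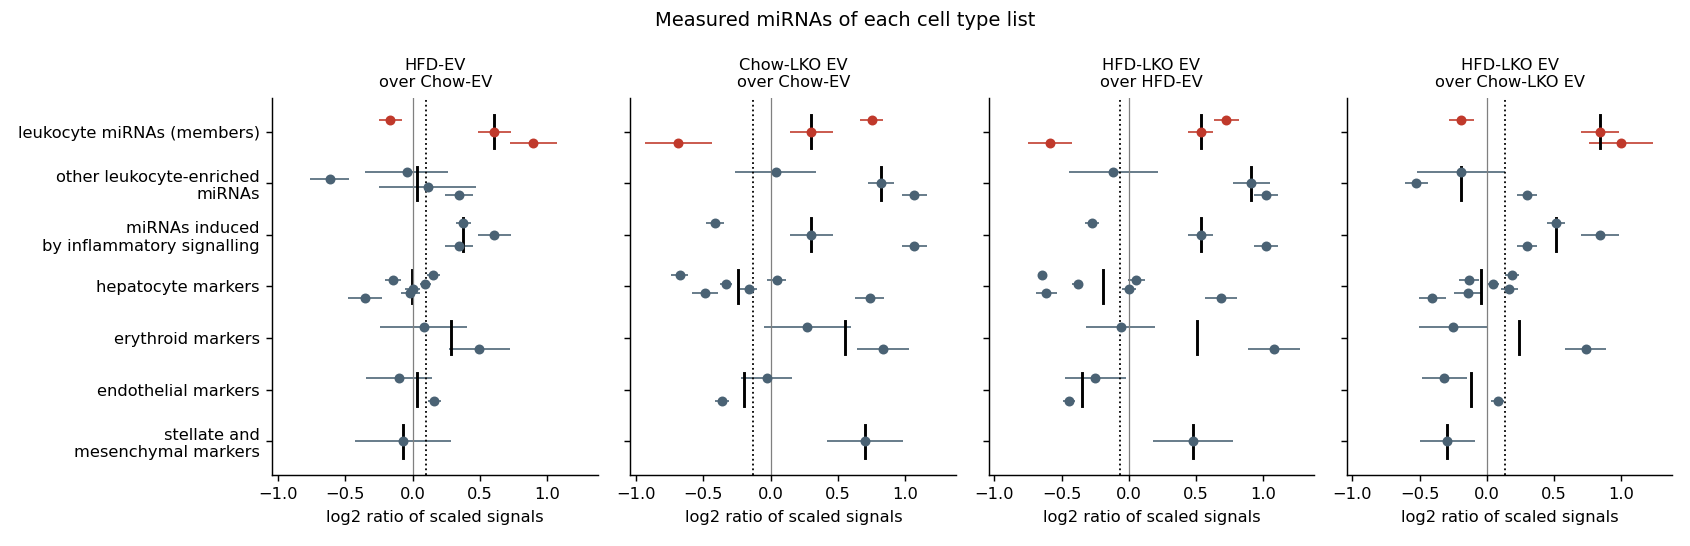
log2 ratio of scaled signals (horizontal axis) of each measured miRNA of the members and of 6 lists (vertical axis) in the 4 comparisons; points with error bars are miRNAs with their spot SD, black ticks list medians, and dotted lines the median of all miRNAs. In the knockout panels the members spread from -0.69 to 0.75 on chow and from -0.59 to 0.73 on HFD, and the hepatocyte list from -0.68 to 0.74 and from -0.64 to 0.68.

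The miRNAs with the most similar pattern over the 4 arrays were found by the root mean square difference of log2 scaled signals, each miRNA centred on its own mean, among 442 others above background on all arrays. For miR-142a-3p they were miR-28a-5p (0.044), miR-7a-5p (0.055) and miR-6351 (0.058), where the median over all 442 was 0.52. For miR-223-3p they were miR-345-3p (0.030), miR-8102 (0.051) and miR-7668-3p (0.064), with a median of 0.50. For miR-155-5p they were miR-6907-5p (0.045), miR-291b-5p (0.11) and miR-6405 (0.14), with a median of 0.48. None of these is a leukocyte miRNA of the lists used here. The 4 points of each pattern are single arrays, so the measure describes these arrays only. The spot SDs of the ratios of miR-142a-3p (0.16 to 0.25) and miR-223-3p (0.085 to 0.093) exceed the distances given for them. For miR-155-5p the spot SDs (0.094 to 0.16) exceed at least the smallest distance. Which miRNAs are nearest is therefore uncertain.

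By the same measure miR-142a-3p and miR-223-3p were far apart, with miR-223-3p at 379 in the order of likeness to miR-142a-3p (0.89). miR-155-5p was at 229 in that order (0.54), and miR-223-3p and miR-155-5p were 0.48 apart, both close to the medians given above for these members. Among the miRNAs of the lists, miR-21a-5p was nearest to miR-142a-3p (rank 52, 0.29), miR-199a-3p to miR-223-3p (rank 7, 0.090) and miR-451a to miR-155-5p (rank 31, 0.28). miR-199a-3p was dim, at 1.54 to 3.37 times the lowest detected signal. The spot SDs of its ratios, 0.20 to 0.36, exceed its distance of 0.090, so its rank is uncertain. miR-451a was at 1.83 times the lowest detected signal in Chow-EV. The leukocyte miRNAs nearest to miR-223-3p were miR-342-3p at rank 30 and miR-146a-5p at rank 78.

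The authors' own normalised log2 signals gave the same directions. miR-142a-3p was at 5.91 (Chow-EV) and 6.40 (HFD-EV) for WT, and 5.64 (Chow-LKO EV) and 6.09 (HFD-LKO EV) for LKO, miR-223-3p at 6.89, 6.73, 7.44 and 7.27, and miR-155-5p at 6.53, 6.90, 6.85 and 7.38. Differences between arrays were smaller on this scale, with 0.49 for miR-142a-3p and 0.37 for miR-155-5p in HFD-EV over Chow-EV.

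One column of the deposited combined table would change the reading of these miRNAs. Its column for HFD-EV does not hold log2 signals: for 1881 of 1881 miRNAs it equals the Chow-EV log2 signal multiplied by the linear ratio of HFD-EV to Chow-LKO EV, within a relative tolerance of 1e-06. For miR-142a-3p it holds 10.02, and read as log2 this would place HFD-EV 4.11 above Chow-EV (17.2-fold), where the HFD-EV signal of the comparison table gives 0.49 (1.41-fold). For miR-223-3p it holds 4.22, which would read as -2.67 (6.35-fold lower), where the comparison table gives -0.16. For miR-155-5p, whose HFD-EV and Chow-LKO EV signals are close, it holds 6.76 beside 6.90. The column departs most from the log2 signal for the members that differ most between HFD-EV and Chow-LKO EV, and it was not used.

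**Figure D4:**
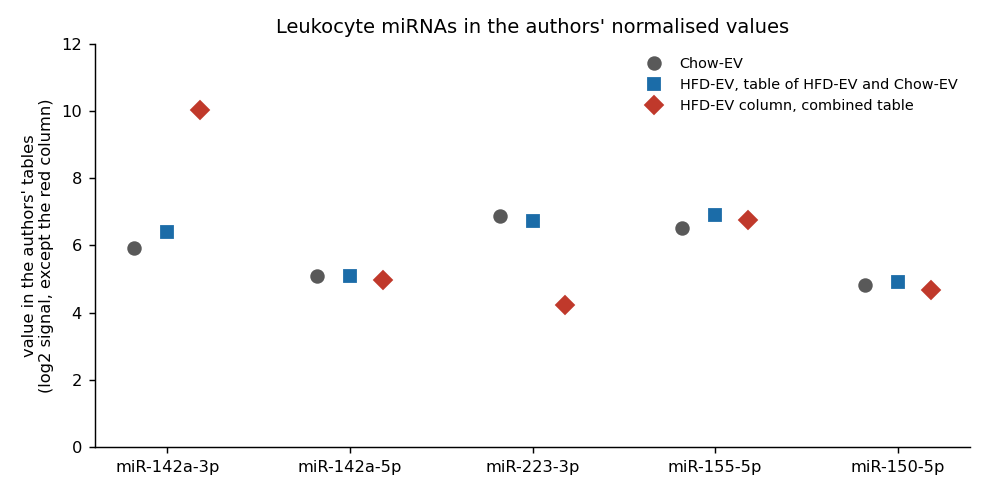
Values of the 5 leukocyte miRNAs (horizontal axis) in the authors' tables (vertical axis, log2 signal except for the red diamonds) for Chow-EV, for HFD-EV in the table that pairs it with Chow-EV, and for the HFD-EV column of the combined table. The red diamond lies at 10.02 for miR-142a-3p and at 4.22 for miR-223-3p, while the squares stay within 0.49 of the circles for all 5.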

How the data were processed

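EV miRNAs were measured in 4 groups with 1 Cy3 array each. The intensity values of spots were deposited by the authors as made with Agilent Feature Extraction 10.7.1.1, per the file headers, which subtracts background and leaves arrays unnormalised. As deposited, log2 values are signals normalised by the authors, and the methods name U6 and GenePix, whereas no probe named U6 was found on the arrays. The score column for HFD-EV in the deposited combined table is a product of a log2 signal and a ratio and was not used. The authors' ratio columns hold their own comparisons and were not used either.

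Control spots and outlier spots (2146 to 2544 of 56430 on an array) were left out, spots were averaged per probe and probes were summed per miRNA. A miRNA was above background when most spots of at least 1 probe were flagged well above background. No spot was saturated. Signals were divided by the 75th percentile over 443 miRNAs. Ratios were measured where both arrays were above background. Otherwise they were taken against the lowest detected signal or the miRNA's own, whichever was higher, and called bounds. Only those against the lowest detected signal are strict limits. In counts past 2-fold, bounds were included. No test was made, with 1 array for each group, and the number of arrays limits the precision.

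The miRNAs named are the members, the members of the lists and, for each detected member, the 3 most similar miRNAs. The members and lists were chosen with earlier results of these data known. Alternatives covered the scaling, background correction (normexp with an offset of 50), probe and spot summary, outlier spots, filter (a signal over 30, or none with a floor), detection call, the authors' values and a 1.5-fold rule. The steps were tested on simulated data. Sequences and positions are from RefSeq (GRCm38.p6). Normexp was run in limma 3.58.1 (R 4.3.3), and all else in Python 3.11.15 (numpy 2.4.6, pandas 2.3.3, matplotlib 3.10.9).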

Additional observations from a re-analysis of the deposited data

How the results depend on the processing

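The 3 detected members kept the sign of all 12 ratios under 13 alternatives. Of these 156 values, 115 moved by less than the spot SD. No paired analysis was possible because each group is 1 array. In HFD-EV over Chow-EV, miR-142a-3p ran from 0.33 to 1.04, miR-223-3p from -0.29 to -0.02 and miR-155-5p from 0.32 to 0.75. In Chow-LKO EV over Chow-EV they ran from -0.81 to -0.27, 0.47 to 1.03 and 0.09 to 0.58, in HFD-LKO EV over HFD-EV from -0.67 to -0.27, 0.47 to 0.83 and 0.36 to 0.65, and in HFD-LKO EV over Chow-LKO EV from 0.43 to 1.06, -0.41 to -0.13 and 0.52 to 0.90. The median of the members in HFD-EV over Chow-EV (0.61) was 0.75 with no scaling, 0.47 with quantile normalisation, 0.32 with normexp, 0.22 with no filter and a floor, and 0.37 with the authors' values. In Chow-LKO EV over Chow-EV (0.30) it was 0.58 with no scaling, 0.46 relative to miR-122-5p, 0.088 with normexp and -0.14 with the floor. In HFD-LKO EV over HFD-EV (0.54) it was 0.63 with the percentile over all miRNAs, 0.65 with quantile normalisation, 0.36 with normexp and -0.45 with the floor. In HFD-LKO EV over Chow-LKO EV (0.84) it was 0.62 with no scaling, 0.69 with the percentile over all miRNAs, 0.68 with quantile normalisation or relative to miR-122-5p, 0.43 with normexp, -0.088 with the floor and 0.44 with the authors' values. With the floor, the undetected miR-142a-5p and miR-150-5p enter at the ratio of the 2 arrays' floors by construction, which is what turns these medians. The normexp offset is added to every spot and shrinks the ratios of dim miRNAs.

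Among the other lists, the floor turned the medians of the other leukocyte-enriched miRNAs to -0.14 (Chow-LKO EV over Chow-EV) and -0.30 (HFD-LKO EV over HFD-EV), of the inflammatory list to -0.14 and -0.36, of the mesenchymal list to -0.14 and -0.45, and of the erythroid list to -0.25 (HFD-LKO EV over HFD-EV) and -0.088 (HFD-LKO EV over Chow-LKO EV). The detection call of Feature Extraction gave -0.065 for the other leukocyte-enriched miRNAs in HFD-LKO EV over HFD-EV, normexp gave 0.059 for them in HFD-LKO EV over Chow-LKO EV and -0.027 for the erythroid list on chow, and no scaling gave 0.028 for the hepatocyte list on chow. In HFD-EV over Chow-EV, the median of the other leukocyte-enriched miRNAs kept its sign in only 7 of 13 alternatives (-0.09 to 0.19). The endothelial median did so in 8 of 13 (-0.06 to 0.18) and the mesenchymal one in 8 of 12 (-0.17 to 0.22). The erythroid median was -0.02 there with normexp. Not every median that changed sign is listed here. With no scaling, the medians of all miRNAs were 0.25, 0.14, -0.15 and -0.08 in place of 0.10, -0.13, -0.06 and 0.14. miRNAs at least 2-fold higher and lower numbered 14 (2 to 32) and 9 (2 to 22) in HFD-EV over Chow-EV, 15 (2 to 37) and 28 (2 to 47) in Chow-LKO EV over Chow-EV, 41 (10 to 58) and 39 (5 to 47) in HFD-LKO EV over HFD-EV, and 22 (1 to 40) and 8 (1 to 23) in HFD-LKO EV over Chow-LKO EV, with ranges over the alternatives.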
